A study of Mus musculus with 4 samples.

Results

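Rbm3 and Cirbp, the genes of the cold-inducible RNA-binding proteins, were followed in group 2 innate lymphoid cells (ILC2) of the pancreatic islets of fed and fasted mice. The members are the 2 rows of the count table with these symbols, out of 15835 genes. They were chosen on their higher counts in the fasted libraries of these data, so their fed and fasted levels are given as a description, with no p-value, although both rows were part of the fit over all genes. ILC2 are tissue-resident lymphocytes that lack antigen receptors and secrete type 2 cytokines. The fed group (columns named control) and the fasted group, as used here, each held 4 libraries of islet ILC2 from C57BL/6j mice. No transgene or deletion was named. A further column of each treatment was set aside. The libraries were made by CEL-seq2, a 3' end method with a barcode for each library. The sources used here do not give the length of the fast or the age and body temperature of the mice. They also do not say if each library stands for another mouse, and a p-value then covers no more than how far these libraries differ, possibly for technical reasons.

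RBM3 and CIRBP are small, closely related proteins, each with an RNA recognition motif followed by a flexible tail rich in arginine and glycine. Their transcripts are known to rise when mammalian cells are cooled mildly and to fall when cells are warmed, the reverse of heat shock genes. Both proteins bind many mRNAs and change their stability, splicing or translation. RBM3 is best known for protecting synapses in the cooled brain, and CIRBP for tying the circadian clock to the daily rhythm of body temperature and for acting as an inflammatory signal once it leaves the cell.

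Library totals ran from 1797504 to 25252366 counts. The markers of acinar cells, the exocrine cells around the islets, took 41.1% to 70.7% of counts in the fed group. In the fasted group they took 66.5% and 68.2% in libraries 4 and 5 but 2.92% and 3.25% in libraries 1 and 3. All 13 listed ILC2 genes had a row in the table, and their summed level was 2114 to 3125 CPM in the fed group and 2444 to 2973 CPM in the fasted group. Of these, the transcription factor Gata3 had 6274 and 4439 counts in all and the IL-33 receptor Il1rl1 4883 and 3732, while Rora, a further ILC2 factor, had only 5 and 1. Levels of single genes and sums are given as CPM, the counts in every 1000000 of a library size scaled by TMM factors. Those factors are set so that most genes do not differ between libraries, which limits the pull of the acinar transcripts.

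Rbm3 lies on chromosome X of mm10 at 8138975 to 8145880, on the minus strand. It stood at 79.4, 96.5, 97.5 and 98.0 CPM in fed libraries 1, 3, 4 and 5. The fasted values of libraries 1, 3, 4 and 5 were 252, 224, 196 and 261 CPM. The lowest fasted library was thus well above the highest fed one. The fed mean was 92.8 ± 8.98 CPM and the fasted mean 233 ± 29.1 CPM (SD, n = 4 each), and the edgeR fit gave a log2 fold change of 1.33 ± 0.20 (SE), a fold of 2.51. The counts behind these levels ran from 178 in fed library 1 to 1375 in fasted library 5. Exact Poisson 95% intervals, which cover counting error only, were 68.2 to 92.0 CPM for fed library 1 and 185 to 208 CPM for fasted library 4, the lowest library of each group. Among the fed libraries the intervals of 3, 4 and 5 overlapped widely.

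Cirbp lies on chromosome 10 at 80165985 to 80172786, on the plus strand. It stood at 38.8, 14.6, 25.4 and 49.3 CPM in fed libraries 1, 3, 4 and 5. The fasted values of libraries 1, 3, 4 and 5 were 120.2, 101, 53.1 and 92.7 CPM. The groups did not overlap here either, but fed library 5 and fasted library 4 lay close together, with counting intervals of 41.6 to 58.1 and 47.1 to 59.6 CPM that overlapped. The fed mean was 32.0 ± 15.2 CPM and the fasted mean 91.8 ± 28.3 CPM (SD, n = 4 each). The fitted log2 fold change was 1.53 ± 0.38 (SE), or a fold of 2.89. Cirbp varied more within groups than Rbm3, with coefficients of variation of 47.4% (fed) and 30.8% (fasted) against 9.68% and 12.5%. Its counts ran from 87 in fed library 1 to 519 in fasted library 3, and the intervals of fed library 3 (12.0 to 17.6 CPM) and fed library 5 did not overlap.

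**Figure D1:**
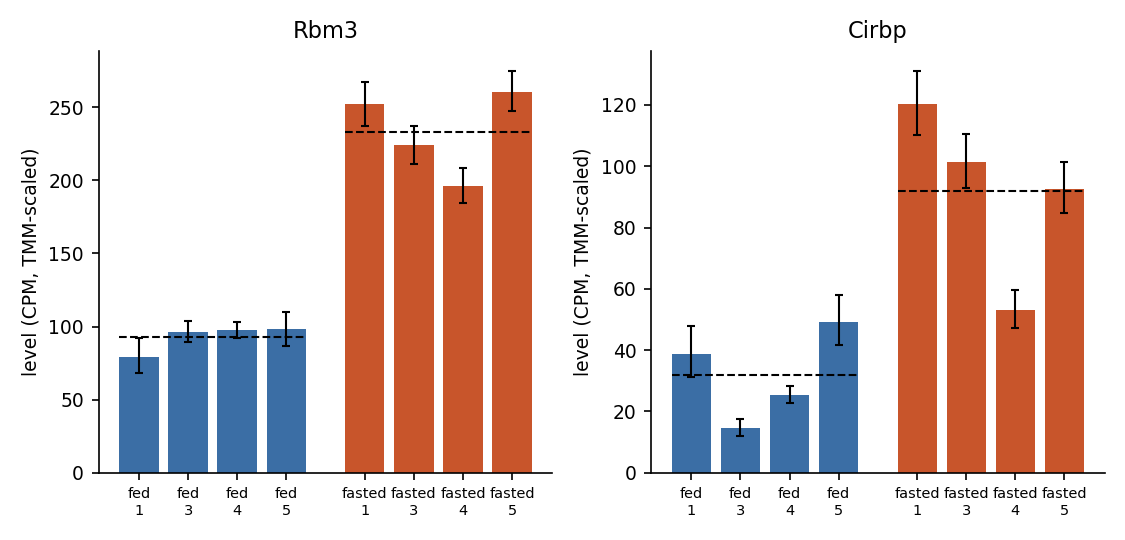
Levels of Rbm3 (left) and Cirbp (right) in each library, as TMM-scaled CPM on axes that start at 0. Bars are single libraries, error bars are exact Poisson 95% intervals of the counts and dashed lines are group means. Rbm3 was 79.4 to 98.0 CPM in fed and 196 to 261 CPM in fasted libraries, and Cirbp 14.6 to 49.3 and 53.1 to 120.2 CPM.

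Cirbp has 2 start-site windows in the RefSeq promoter table (build GRCm38.p6, which shares its coordinates with mm10), each from 250 bases before a start site to 50 after it, and 1 of the 2 members matched that table. The first window holds, near its 5' end, the letters TCCCCGCC, the motif known as the mild-cold response element of mouse Cirbp, to which the factor Sp1 binds. The stretch is shown because it holds this element, which is in capitals. It covers the 189 bases of the window that lie before any annotated exon beginning inside it, on the plus strand, chr10:80167589-80167777. The GENCODE gene begins further 5', at 80165985, so the stretch lies within the annotated gene. It is upstream of the RefSeq start sites of both windows, but not of the start of the GENCODE gene.

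Cirbp upstream region: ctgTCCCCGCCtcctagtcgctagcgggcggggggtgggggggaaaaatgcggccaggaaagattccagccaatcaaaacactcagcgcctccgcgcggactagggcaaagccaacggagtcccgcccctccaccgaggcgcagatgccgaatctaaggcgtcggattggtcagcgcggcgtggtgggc

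Searched on both strands, TCCCCGCC occurred once in the first window, at 80167592 to 80167599, and 0 times in the second. It was present in 5.38% of the 32851 windows of the same length in the table. The first window also held 3 GC boxes (GGGCGG, in 35.7% of all windows) and 2 CCAAT boxes (CCAAT, in 37.4%), and the second held 4 GC boxes. None of these overlapped another motif searched. Neither window held an E-box (CACGTG, 7.15%), a cyclic AMP response element (TGACGTCA, 1.79%) or a heat shock element (GAANNTTC, 7.86%). The windows were rich in G and C, at 65.7% and 70.0%, against a median of 52.7% over all windows. These are letter matches and say nothing about binding in these cells. The mean of Sp1 itself was 37.95 ± 13.8 CPM (fed) and 29.4 ± 13.1 CPM (fasted) (SD, n = 4 each), at a log2 fold change of -0.38 ± 0.38 (SE).

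The values that chose the members place them among many other genes. Across the 7700 genes tested, 170, or 2.21%, had every fasted library above every fed one, and Rbm3 and Cirbp are 2 of these by the choice made. Of all genes tested, 0% passed an adjusted p of 0.05 by edgeR's quasi-likelihood test in either direction. DESeq2 called 8 genes, limma-voom 0, and by edgeR 4.39% had an unadjusted p under 0.05. In either direction 3.52% of genes did not overlap between the groups, and 2.73% were higher in fasted libraries by a log2 fold change of at least 1, as both members were. None of these shares is read as a result about the members.

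Within the pairs of libraries that share a number in their column names, Rbm3 was higher in the fasted library by 3.17, 2.32, 2.01 and 2.66 times for numbers 1, 3, 4 and 5. Cirbp was higher by 3.10, 6.93, 2.09 and 1.88 times. The ratio was thus similar for both genes in numbers 1 and 4 and set apart in number 3, where fed Cirbp was at its lowest. The number of Rbm3 counts for each Cirbp count does not depend on any scaling between libraries. In the order 1, 3, 4 and 5 it was 2.05, 6.60, 3.84 and 1.99 for the fed group, then 2.10, 2.21, 3.70 and 2.81 for the fasted group. These ratios overlapped between the groups, with a mean of 3.62 ± 2.17 (fed) and 2.70 ± 0.73 (fasted) (SD, n = 4 each).

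The gap between the groups was also read on scales that treat acinar RNA differently. Per 1000 counts of the ILC2 markers, the fed values of Rbm3 in libraries 1, 3, 4 and 5 were 28.8, 30.9, 46.1 and 37.4, and the fasted values 98.4, 75.4, 80.3 and 104.5. Those of Cirbp were 14.1, 4.68, 12.0 and 18.8 (fed) and 47.0, 34.1, 21.7 and 37.2 (fasted). Neither gene overlapped between the groups, and the ratios of fasted to fed means were 2.50 and 2.82. With acinar markers taken out of the library totals, the ratios were 2.47 for Rbm3 and 2.89 for Cirbp, again with no overlap. Over plain library totals Rbm3 ran from 52.3 to 122 CPM in fed and from 136 to 528 CPM in fasted libraries, while Cirbp ran from 13.6 to 48.4 and from 36.7 to 252 CPM and did overlap. On plain totals the median of all tested genes was itself at a log2 fold change of 0.51, against 0.00 with TMM factors.

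**Figure D2:**
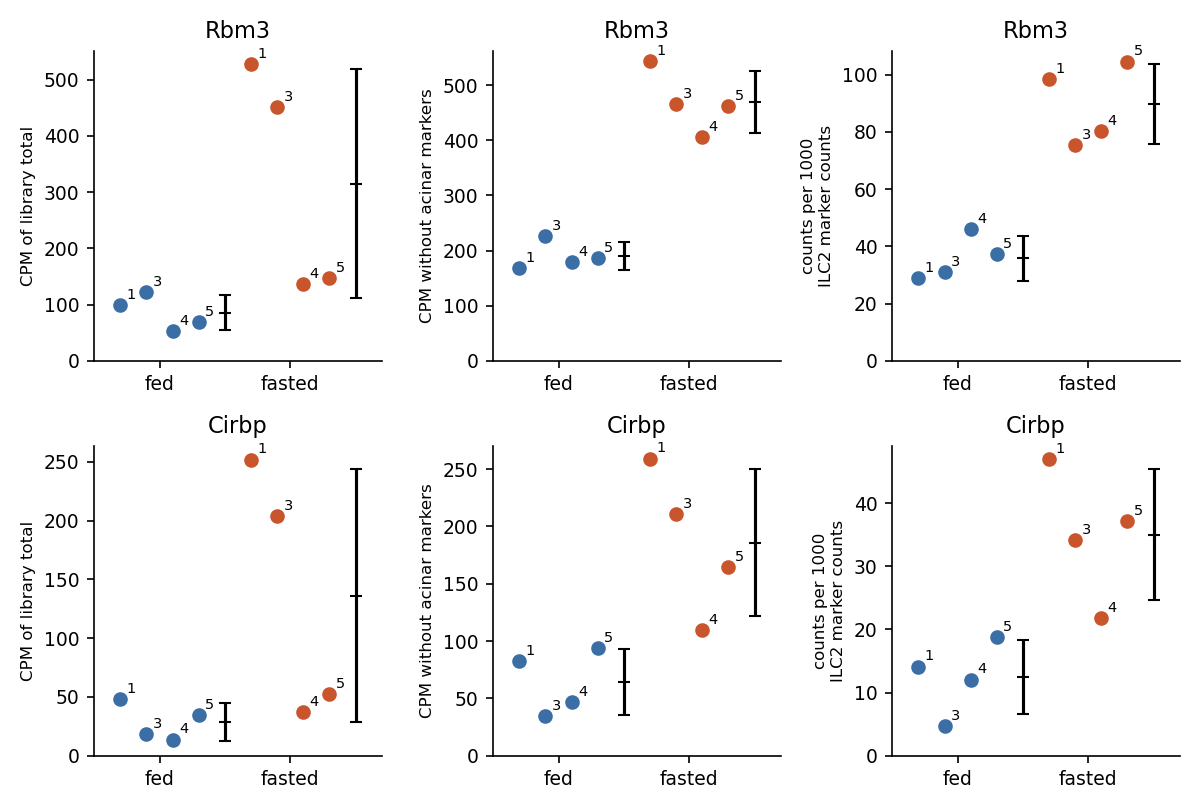
Rbm3 (top) and Cirbp (bottom) on 3 other scales: CPM of the library total, CPM with acinar marker counts removed from the total, and counts per 1000 ILC2 marker counts, all on axes that start at 0. Points are libraries with their numbers, and black bars are means with SD (n = 4). Fed and fasted points separate in every panel except Cirbp over library totals, where fasted library 4 (36.7) lies below fed library 1 (48.4).

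Libraries 4 and 5 of both groups were alike in acinar share (63.5% to 70.7%). In these, Rbm3 stood at 97.5 and 98.0 CPM in fed against 196 and 261 CPM in fasted libraries, and the log2 fold change was 1.22 ± 0.39 (SE). Cirbp stood at 25.4 and 49.3 CPM against 53.1 and 92.7 CPM, at 0.96 ± 0.49. Within the fasted group, Rbm3 was 252 and 224 CPM in the acinar-poor libraries 1 and 3 and 196 and 261 CPM in the acinar-rich libraries 4 and 5, values that overlap. For Cirbp they were 120.2 and 101 CPM against 53.1 and 92.7 CPM, so the acinar-poor libraries were the higher ones. Without the acinar-poor libraries the log2 fold changes were 1.30 ± 0.28 for Rbm3 and 1.19 ± 0.46 for Cirbp. In bulk RNA a change in the share of cells that hold a transcript and a change in RNA per cell cannot be told apart.

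Transcripts of other immune cells also differed between the libraries. The 8 T cell markers with a row, of 9 listed, had summed levels of 41.5 to 57.9 CPM (fed) and 66.0 to 86.8 CPM (fasted), without overlap. Cd3g, a chain of the T cell receptor complex that innate lymphoid cells can also carry, gave most of these counts (855 in fed and 965 in fasted libraries). Next came the transcription factor Lef1 with 210 and 419, the receptor chain Cd3e with 32 and 118 and Cd6 with 17 and 33, while Cd8a had 11 and 0 and Cd5 3 and 0. The 5 B cell markers found, of 8, had summed levels of 0.68 to 5.84 CPM (fed) and 3.12 to 11.6 CPM (fasted), and Ms4a1 had 1 and 4 counts in all. The 9 myeloid markers found, of 10, summed to 2.59 to 12.9 and 4.42 to 61.8 CPM. The complement genes C1qb and C1qc had 23 and 11 counts in fed and 196 and 51 in fasted libraries, 161 and 37 of the latter in fasted library 1, and Csf1r had 0 and 50, all 50 in fasted library 1. Lyz2 had 0 and 2, C1qa 21 and 30, Itgam 1 and 12 and Cd68 0 and 5. Cd14, at 23 and 5, and Adgre1, at 18 and 14, were lower in fasted libraries. The 8 islet endocrine markers found, of 12, had summed levels of 63.4 to 165.6 CPM (fed) and 2.11 to 82.6 CPM (fasted). Ttr gave most of these counts (2818 in fed and 622 in fasted libraries), and Pcsk1 had 292 and 114. The insulin genes went the other way: Ins1 had 5 and 51 counts and Ins2 21 and 80. In fasted library 3 alone these 2 genes had 51 and 73. Gcg, Iapp, Chga and Chgb had very few counts. The part of these cells in the levels of Rbm3 and Cirbp was not tested.

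Genes next to the members on the chromosome gave values on both sides of 0. Beside Rbm3, the WD repeat gene Wdr13 was at -1.34 ± 0.89 (log2 fold change ± SE) and Tbc1d25, whose product acts on Rab GTPases, at -0.89 ± 0.46. Beside Cirbp, Midn was at 0.32 ± 0.30 and 1600002K03Rik, which starts 157 bases past the end of Cirbp, at 0.45 ± 0.50. None of the 4 passed in edgeR (adjusted p = 1.00 for each). The antisense gene Rbm3os, listed under an older symbol, overlaps the 5' end of Rbm3 by 452 bases and had 9 counts in fed and 7 in fasted libraries against 2497 and 4665 of Rbm3, too few to be tested. The sources used here do not say if the counting used strand, and reads shared with the processed pseudogene Rbm3-ps could not be told apart.

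Other genes of the same protein families did not pass in either direction, as held for all 7700 tested genes in edgeR, the members included. The table held 42 other genes of the RBM family (names starting Rbm, Rbmx or Rbms), of which 25 passed the filter on low counts and were tested. Their median log2 fold change was -0.01, beside 0.00 for all tested genes, with 11 above and 14 below 0 and a range from -0.85 to 0.68. By edgeR 0 of 25 passed an adjusted p of 0.05 and 0 had an unadjusted p under 0.05. The smallest p belonged to the splicing factor Rbm17 (fed mean 17.3 ± 3.51 CPM, fasted mean 12.1 ± 1.66 CPM), followed by Rbm28 and Rbm45 at log2 fold changes of -0.85 ± 0.57 and -0.83 ± 0.57. All 25 were thus nearer 0 than Rbm3 at 1.33 and Cirbp at 1.53, which were chosen for their higher fasted levels.

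The cold shock domain proteins, the other family named for the cold response, bind RNA through a different fold. Of 8 listed, 4 were tested and 0 passed. Carhsp1 ranged from 24.9 to 32.5 CPM (fed) and from 31.5 to 51.9 CPM (fasted), which overlap, with an edgeR log2 fold change of 0.75 ± 0.25 (adjusted p = 0.89); it was the 1 gene of the list with an unadjusted p under 0.05. The translation regulators Ybx1 and Ybx3 were at -0.11 ± 0.29 and -0.25 ± 0.41. Lin28a and Ybx2, genes of embryonic and germ cells, had 1 count each.

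Splicing of Rbm3 is set by RNA-binding proteins: at warm temperature an exon that triggers decay of the transcript is included, and HNRNPH1 acts on that choice. Counts per gene do not separate these forms. Hnrnph1 had fed levels of 69.6, 78.5, 97.7 and 39.4 CPM in libraries 1, 3, 4 and 5 and fasted levels of 54.3, 49.6, 109 and 32.2 CPM. The groups overlapped, with a log2 fold change of -0.22 ± 0.38. Of 29 hnRNP and related genes 24 were tested, 12 on each side of 0 with a median of 0.00. By edgeR 0 passed and 1 had an unadjusted p under 0.05, Hnrnpa0, with a fed range of 133 to 162 CPM and a fasted range of 184 to 238 CPM (log2 fold change 0.46 ± 0.19; edgeR, adjusted p = 1.00). Hnrnpd, which binds AU-rich elements, was the other gene of the list whose fasted libraries all lay above the fed ones, at 0.57 ± 0.27, and the pre-mRNA binding factor Hnrnpc was at -0.29 ± 0.19.

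SR proteins, splicing factors whose activity CLK kinases set in a temperature-dependent way, were mostly below 0 in fold change, and none passed. Of 19 genes of SR proteins and their CLK and SRPK kinases, 17 were tested, with 11 below 0 and a median of -0.19. By edgeR 0 passed and 1 had an unadjusted p under 0.05. Srsf1 had a fed range of 17.3 to 35.3 CPM and a fasted range of 9.86 to 14.6 CPM (log2 fold change -1.03 ± 0.32; edgeR, adjusted p = 0.79). Srsf2 was at -0.38 ± 0.19 and Srsf3 at -0.37 ± 0.22, and the fed and fasted libraries of these 3 genes did not overlap. Over all genes 1.31% had every fasted library below every fed one.

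Other regulators and partners of the members also gave 0 calls. Of 12 listed 9 were tested, with 1 above 0 and a median of -0.22. The kinases Gsk3b and Csnk2a1 were at -0.66 ± 0.51 and -0.13 ± 0.24, and Prmt1, which methylates arginines in such tails, at -0.35 ± 0.52. Tnpo1, the import receptor for such proteins, was at -0.16 ± 0.67, and the transcription factors Creb1 and Hif1a at -0.19 ± 0.53 and 0.06 ± 0.59. The receptor Ntrk2, which acts upstream of Rbm3 in neurons, had 26 counts in fed and 17 in fasted libraries, its partner Plcg1 7 and 2, and the heat-sensitive channel Trpv4 12 and 8, too few to be tested.

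Among known targets and receptors, thioredoxin Txn1, whose mRNA CIRBP binds, had fed levels of 75.4, 78.5, 93.5 and 89.7 CPM in libraries 1, 3, 4 and 5 and fasted levels of 52.9, 69.5, 62.3 and 66.5 CPM. Every fasted library was below every fed one, at a log2 fold change of -0.42 ± 0.20, and the gene did not pass in edgeR (adjusted p = 1.00). Rtn3, the reticulon through which RBM3 acts at synapses, was at -0.20 ± 0.31. The clock gene Clock, whose mRNA CIRBP binds, had 25 counts in fed and 14 in fasted libraries. Tlr4 and Trem1, receptors for CIRBP outside cells, had 13 and 22 counts and 3 and 0. Il6ra, also listed, had 33 and 28 counts. None of these last 4 reached the filter, so 2 of the 6 listed targets and receptors were tested. The 14 tested stress granule genes, which encode proteins of the RNA bodies that CIRBP enters in stressed cells, had a median of -0.09 with 6 above 0, and by edgeR 0 passed and 0 had an unadjusted p under 0.05. Their 3 genes of smallest p were Taf15, Pabpc1 and Tial1, at 0.85 ± 0.54, 0.47 ± 0.30 and -0.64 ± 0.54. DESeq2 and limma-voom also called 0 genes of any of these lists.

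**Figure D3:**
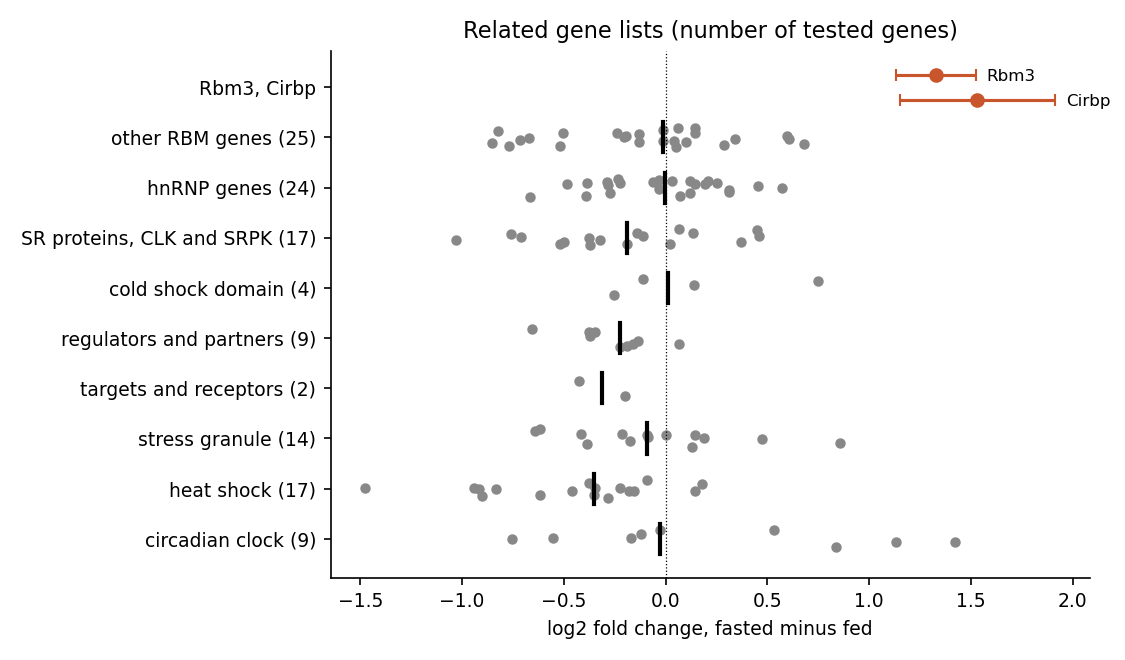
Log2 fold changes, fasted minus fed, of Rbm3 and Cirbp (points with SE) and of the tested genes of 9 related lists (grey points, spread vertically for sight), with list medians as black lines and the number of tested genes in brackets. The list medians lie between -0.35 (heat shock) and 0.01 (cold shock domain), and Tef, at 1.42, is the only listed gene above Rbm3 (1.33).

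Heat shock genes, most of which encode chaperones or their partners, are known to answer to temperature in the opposite sense to the members. The list also holds the transcription factor Hsf1, at a log2 fold change of 0.18 ± 0.45 (SE). Of 19 listed 17 were tested, 15 of them below 0 (3865 of 7700 over all genes), with a median log2 fold change of -0.35. By edgeR 0 passed, and 1, the co-chaperone Stip1 (-0.94 ± 0.41; adjusted p = 1.00), had an unadjusted p under 0.05. Hsph1 and Hsp90ab1 came next at -1.48 ± 0.69 and -0.62 ± 0.33. Summed over the list, these genes came to 1529.7, 3388, 1653 and 1215 CPM in the fed libraries 1, 3, 4 and 5, beside 905, 1310.5, 2072 and 1401 CPM in the fasted ones. The groups overlapped, and the highest library of each group was fed 3 and fasted 4. These are also the libraries with the lowest Cirbp of their group, at 14.6 and 53.1 CPM.

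The order of the libraries by Cirbp was the exact reverse of their order by the heat shock sum, in the fed group (libraries 3, 4, 1, 5 from the most heat shock RNA to the least) and in the fasted group (4, 5, 3, 1). The number of Rbm3 counts for each Cirbp count followed the heat shock order in both groups, from 6.60 in fed library 3 to 1.99 in fed library 5 and from 3.70 in fasted library 4 to 2.10 in fasted library 1. Since Cirbp is part of this number and Rbm3 varied less within groups, it largely repeats the order of Cirbp. Rbm3 did not follow the heat shock order: among fed libraries 3, 4 and 5 it was level, and in the fasted group library 5 was highest. Taken singly, 4 of the 17 tested heat shock genes, Hsp90ab1, Hspa8, Hsp90aa1 and Hspa1a, had the full reversal of Cirbp's order in both groups. Among all 7700 tested genes, 40, or 0.519%, had it. The 4 heat shock genes are part of the sum in which the order was seen, so they are no independent evidence of it. On the scale of ILC2 marker counts the fed order was again fully reversed, while in the fasted group libraries 3 and 5 changed places (34.1 and 37.2 Cirbp counts per 1000). This pattern was noticed in the values and rests on 4 libraries a group, too few for a correlation within a group. In TMM-scaled CPM both fasted orders also separate libraries 4 and 5 (66.5% and 68.2% acinar) from libraries 1 and 3 (2.92% and 3.25%). The acinar shares of fed libraries 3, 4, 1 and 5 were 46.3%, 70.7%, 41.1% and 63.5%. The part of acinar RNA in the pattern was not tested.

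**Figure D4:**
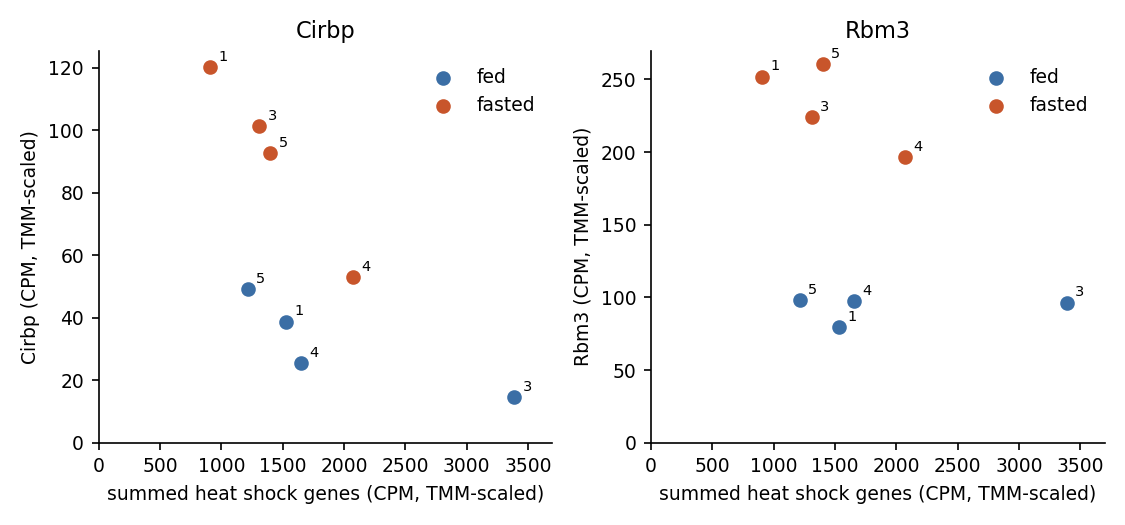
Cirbp (left) and Rbm3 (right) against the summed heat shock genes in each library, all as TMM-scaled CPM, with library numbers beside the points. Within each group Cirbp falls from left to right without exception, from 49.3 to 14.6 CPM in fed and from 120.2 to 53.1 CPM in fasted libraries, while fed Rbm3 stays between 79.4 and 98.0 CPM.

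Clock genes are a group through which Cirbp is known to act. Of 19 listed 9 were tested, with 4 above 0, a median of -0.03 and 0 passing by edgeR; 2 had an unadjusted p under 0.05. The repressor Per1 had fed levels of 33.5, 24.2, 28.3 and 39.7 CPM in libraries 1, 3, 4 and 5 and fasted levels of 97.5, 64.2, 46.1 and 66.7 CPM, and Tef, a clock output factor, had ranges of 2.40 to 6.36 (fed) and 9.17 to 18.0 CPM (fasted). Every fasted library was above every fed one for both genes, and neither passed (edgeR, adjusted p = 0.54 and 0.79), while Cry1 was at -0.76 ± 0.37.

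Across the 8 libraries, the pattern of each member was compared with that of 2500 genes at a mean of 20 CPM or more, by the root mean square difference between log2 CPM values centred on each gene's mean. The 5 genes nearest to Rbm3 were Maff, a small Maf transcription factor (0.20), Padi2, a peptidylarginine deiminase (0.22), Rab4a, a GTPase of endosome recycling (0.23), the long noncoding RNA gene 1500012F01Rik, now named Zfas1 (0.23), and Plin2, a lipid droplet protein (0.24). Maff had a fed mean of 36.6 CPM and a fasted mean of 74.6 CPM, and Plin2 23.8 and 47.6 CPM, with no overlap for either. The 5 nearest to Cirbp were Per1 (0.40), the telomere protein gene Acd (0.42), Gm4956, a transcribed pseudogene (0.48), the zinc finger gene Zfp865 (0.48) and the noncoding gene 2610035D17Rik (0.48). No gene lay as near to Cirbp as any of the 5 lay to Rbm3. The members differed from each other by 0.56, which put Cirbp at place 317 among the genes nearest to Rbm3 and Rbm3 at place 26 among those nearest to Cirbp. Genes like the members share their higher fasted level by construction, and the 8 points of every gene come from the same libraries, with the same depth and acinar share.

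**Figure D5:**
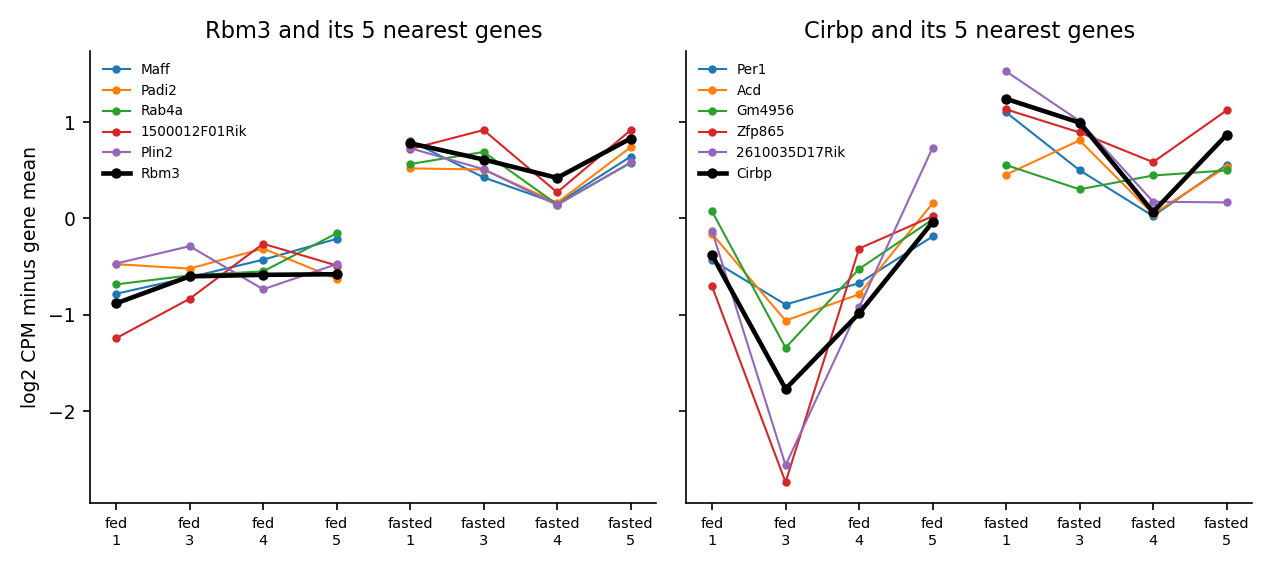
Log2 CPM minus each gene's mean over the 8 libraries, for Rbm3 (left, black) and Cirbp (right, black) with the 5 nearest genes of each in colour; lines only join the points of a gene within a group, and library numbers have no order. All 5 genes near Rbm3 have their lowest fasted value in library 4, as Rbm3 does, and all 5 near Cirbp have their lowest fed value in library 3, as Cirbp does. The genes were picked for likeness over these same 8 libraries, so a shared lowest library follows in part from the choice.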

How the data were processed

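Raw whole-number counts per gene were deposited by the authors for CEL-seq2 libraries. The submitters' processing notes name STAR, edgeR and mm10; versions, and the choice between reads and molecular identifiers, are not given in the sources used here. A library's treatment was read from its column name. Each of the 4 sequencing files pools both treatments. Here 4 columns a group were used, and 2 columns (for each treatment, the one with the fewest counts) were set aside. The number of files does not by itself require this. No alternative brought these columns back, so how far the results depend on leaving them out was not tested. The 11 rows of ERCC spike-in controls (20 counts) were left out. The members, gene lists and alternatives were chosen with earlier results of these data known.

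With edgeR 4.0.16 in R 4.3.3, filterByExpr kept 7700 genes, TMM factors scaled the libraries, and fasted libraries were set against fed ones by the robust quasi-likelihood test, two-sided, with Benjamini-Hochberg adjustment and a threshold of 0.05. SE is the log2 fold change divided by the root of its F statistic. Alternatives used DESeq2 1.42.0 and limma 3.58.1 (voom), and the tests were tested on simulated data. The text names Rbm3 and Cirbp, the 3 genes with the smallest p in each of 9 lists, all tested regulators and targets, the 5 nearest genes by pattern, and chromosomal neighbours; the remaining genes it names, such as list genes at few counts, were named after their values were seen. For 4 list genes the table used an older symbol, matched by RefSeq synonym and chromosome. Coordinates are from GENCODE vM21, on the same build. Libraries of the same column number correlated at 0.225, 0.139, 0.504 and 0.131 in their deviations from group means. All were above 0.1, and on that rule the numbers were taken as pairs in the block fit. Fed library 1 correlated with fasted library 3 at 0.197, and fed library 4 with fasted library 5 at 0.215. Both values exceed the same-number value of that fasted library. The correlations thus do not establish the pairing, and no label gives the meaning of the numbers. No pair of libraries in a group agreed within counting noise.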

Additional observations from a re-analysis of the deposited data

Results flagged for a closer look

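In groups of 4 libraries, 40 sets of values were searched for a library set apart from the other 3 by a gap that took up nearly all of the group's range, which chance gives in about 1 group in 20, and 4 were found. Rbm3 in fed library 1, at 79.4 CPM, lay below the other fed libraries, which were between 96.5 and 98.0 CPM; its counting interval reached 92.0 CPM. Summed clock genes were at 381 CPM in fasted library 1 against 250.04 to 266 CPM in the other fasted libraries. Summed myeloid markers were at 12.9 CPM in fed library 1 against 2.59 to 3.25 CPM in the other fed libraries. In fasted library 1 they were at 61.8 CPM against 4.42 to 8.98 CPM in the other fasted libraries. All 4 values thus belong to library 1 of a group. Without fed library 1 the log2 fold changes of Rbm3 and Cirbp were 1.26 and 1.64, and without fasted library 1 they were 1.29 and 1.37.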

How the results depend on the processing

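Under each of 21 alternatives the log2 fold changes of Rbm3 and Cirbp stayed above 0. With library totals alone they were 1.89 and 2.26, where the median gene was at 0.51; in the other 20 alternatives each moved by less than the spread between libraries. With a library left out, Rbm3 ran from 1.26 to 1.39 and Cirbp from 1.28 to 1.82. With the replicate block on the column number they were 1.32 ± 0.18 and 1.58 ± 0.33, and the block changed no call. Scaling by ILC2 marker counts and libraries 4 and 5 alone were chosen after seeing the data; the former gave 1.32 and 1.51.

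DESeq2 called 8 genes, 6 of them higher in fasted libraries. Rbm3 and 1500012F01Rik were among these, which supports nothing, since Rbm3 was chosen for its fasted counts in these libraries and 1500012F01Rik for its likeness to Rbm3. Library totals and no filter on low counts called 1 each, lower in fasted libraries (Chac1 with totals); every other alternative called 0. The cause of these differences was not tested. None of the related lists' genes was called in any alternative. Low counts limit Clock, Ntrk2, Plcg1, Trpv4, Tlr4, Trem1 and Il6ra, which could not be compared.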
